A study of Mus musculus with 4 samples.

Results

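The pore genes of high-voltage-activated calcium channels (5 genes, Cacna1a, Cacna1b, Cacna1c, Cacna1d and Cacna1e) and the genes for their alpha2delta subunits (3 genes, Cacna2d1, Cacna2d2 and Cacna2d3) were described in mouse lateral habenula. They were chosen by gene symbol, matched to the Ensembl identifiers of the count matrix through the GENCODE annotation of GRCm38. All 8 were found among 53465 identifiers. The lateral habenula is a small epithalamic nucleus that passes forebrain signals to midbrain monoamine neurons. Its RNA was sequenced in 2 libraries from socially isolated C57BL/6 mice and 2 libraries from group-housed C57BL/6 mice. No other treatment or allele is named for either group, and the labels do not state how long isolation lasted, the age or sex of the mice, or whether animals were pooled. The p-values below therefore measure the spread between these libraries, which may be technical.

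High-voltage-activated channels open on strong depolarisation and turn electrical activity into calcium entry, which drives transmitter release, gene expression and the calcium-dependent conductances that shape firing. The pore is a single large protein of 4 homologous repeats, and a beta subunit inside the cell and an alpha2delta subunit outside it bring the pore to the membrane and set its gating. Lateral habenula neurons are best known for burst firing that depends on a different family, the low-voltage-activated T-type channels. The high-voltage group falls into the P/Q-type (Cacna1a), N-type (Cacna1b), R-type (Cacna1e) and L-type (Cacna1c and Cacna1d) channels.

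The 5 pore genes share the feature that makes them calcium-selective. In each repeat a loop dips into the pore and carries an acidic residue that faces calcium. All 20 of these sites, 4 in each pore gene, were found in the GENCODE transcripts by short protein patterns that contain a glutamate. The glutamate codon at each site is thus part of the search and not a separate result. The 4 stretches of Cacna1e, which had the highest level of these 5 genes per kilobase of exon, are shown. That codon is in capitals, with 21 bases on either side.
Cacna1e, repeat I: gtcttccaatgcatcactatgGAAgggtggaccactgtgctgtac
Cacna1e, repeat II: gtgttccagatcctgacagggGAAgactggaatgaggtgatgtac
Cacna1e, repeat III: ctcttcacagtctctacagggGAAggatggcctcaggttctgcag
Cacna1e, repeat IV: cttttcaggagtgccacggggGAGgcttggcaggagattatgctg
These stretches lie on the minus strand of GRCm38, at chr1:154633557-154633601 in exon 6 for repeat I, and across an exon junction within chr1:154481634-154482559, chr1:154443993-154444906 and chr1:154425966-154426533 for repeats II, III and IV. Each of the 3 junction-crossing spans includes an intron that the printed bases leave out.

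Repeat III is one of the repeats in which the acidic residue differs between high-voltage and T-type genes. It is shown for the other 4 pore genes beside Cacna1g, the T-type gene with the highest level per kilobase of exon in these libraries. Capitals again mark the codon of the acidic residue.
Cacna1a: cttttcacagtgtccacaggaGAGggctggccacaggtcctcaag
Cacna1b: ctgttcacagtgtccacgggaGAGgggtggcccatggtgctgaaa
Cacna1c: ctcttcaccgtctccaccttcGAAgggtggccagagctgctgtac
Cacna1d: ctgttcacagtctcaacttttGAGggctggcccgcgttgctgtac
Cacna1g: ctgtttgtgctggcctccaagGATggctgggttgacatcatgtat
The Cacna1g codon encodes aspartate, whereas the 5 high-voltage genes carry glutamate. The pattern used to find the Cacna1g site likewise contained the aspartate. On GRCm38 the stretches fall within chr8:84581317-84583568 (Cacna1a, plus strand), chr2:24650619-24651115 (Cacna1b, minus), chr6:118654446-118656147 (Cacna1c, minus) and chr14:30099234-30100731 (Cacna1d, minus), each across an exon junction, and at chr11:94426450-94426494 (Cacna1g, minus) inside exon 24. Cacna1a and Cacna1b matched at 36 of the 45 bases, and the L-type pair Cacna1c and Cacna1d at 35 of 45. Cacna1e matched Cacna1a at 35 of 45 bases, and it matched Cacna1g at 21 of 45.

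The alpha2delta subunits share an extracellular metal ion-dependent adhesion site, a cluster of residues that binds a divalent ion and is needed to bring channels to the cell surface. It is shown for all 3 genes with its 5 core codons in capitals, since the results below set these genes against each other.
Cacna2d1: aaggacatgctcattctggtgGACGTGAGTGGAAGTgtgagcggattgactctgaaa
Cacna2d2: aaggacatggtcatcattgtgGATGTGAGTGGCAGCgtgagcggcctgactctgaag
Cacna2d3: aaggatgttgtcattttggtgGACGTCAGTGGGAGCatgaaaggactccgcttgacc
The GRCm38 spans are chr5:16266712-16267406 (Cacna2d1, plus strand) and chr9:107513079-107513263 (Cacna2d2, plus), both across an exon junction, and chr14:29346950-29347006 (Cacna2d3, minus) inside exon 8. Cacna2d1 and Cacna2d2 matched at 47 of 57 bases, whereas Cacna2d3 matched Cacna2d1 at 38 and Cacna2d2 at 37. Shared runs of identical bases were sought between the 8 genes, each taken as its transcript with the longest coding sequence. The longest such run was 43 bases, between Cacna1c and Cacna1d. Other transcripts of the genes were not compared. The labels do not state the read length, so it is unknown whether a read could fit inside such a run.

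The libraries held 25985591 to 26428152 counts in the isolated group and 20897605 to 25640860 in the group-housed group. Levels are given as CPM, the counts of a gene per 1000000 counts of its library. CPM was computed on library sizes scaled by the trimmed mean of M-values, whose factors lay between 0.983 and 1.020. Replicates of a group differed beyond sampling noise, with a chi-square per degree of freedom of 7.57 between the isolated and 5.13 between the group-housed libraries. All 10 lateral habenula markers were detected in every library, the most abundant being Gpr151 at 426 and 426 CPM in isolated and 397 and 352 CPM in group-housed libraries. Markers of neighbouring medial habenula and thalamus were detected in every library too. None of the marker genes was at 0 in all 4 libraries.

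In the comparison of isolated with group-housed mice, none of the 8 channel genes passed the test. The test was the quasi-likelihood test of edgeR, with p-values adjusted by the Benjamini-Hochberg method over 17528 genes at a threshold of 0.05, in which 0.0114% of all genes passed (2 genes, or 221 without isolated replicate 1). Of the 8 genes, 3 (Cacna1d, Cacna1e and Cacna2d2) were higher and 1 (Cacna2d1) was lower in both isolated libraries than in both group-housed ones, by 1.24-fold at most. These 4 genes were also the ones with an unadjusted p below 0.05, which 5.09% of all tested genes had. Over all tested genes, 17.4% were higher and 16.3% lower in both isolated libraries. The other 4 genes had overlapping groups. The median log2 fold change of the 8 genes was -0.02, against 0.0033 over all tested genes.

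**Figure D1:**
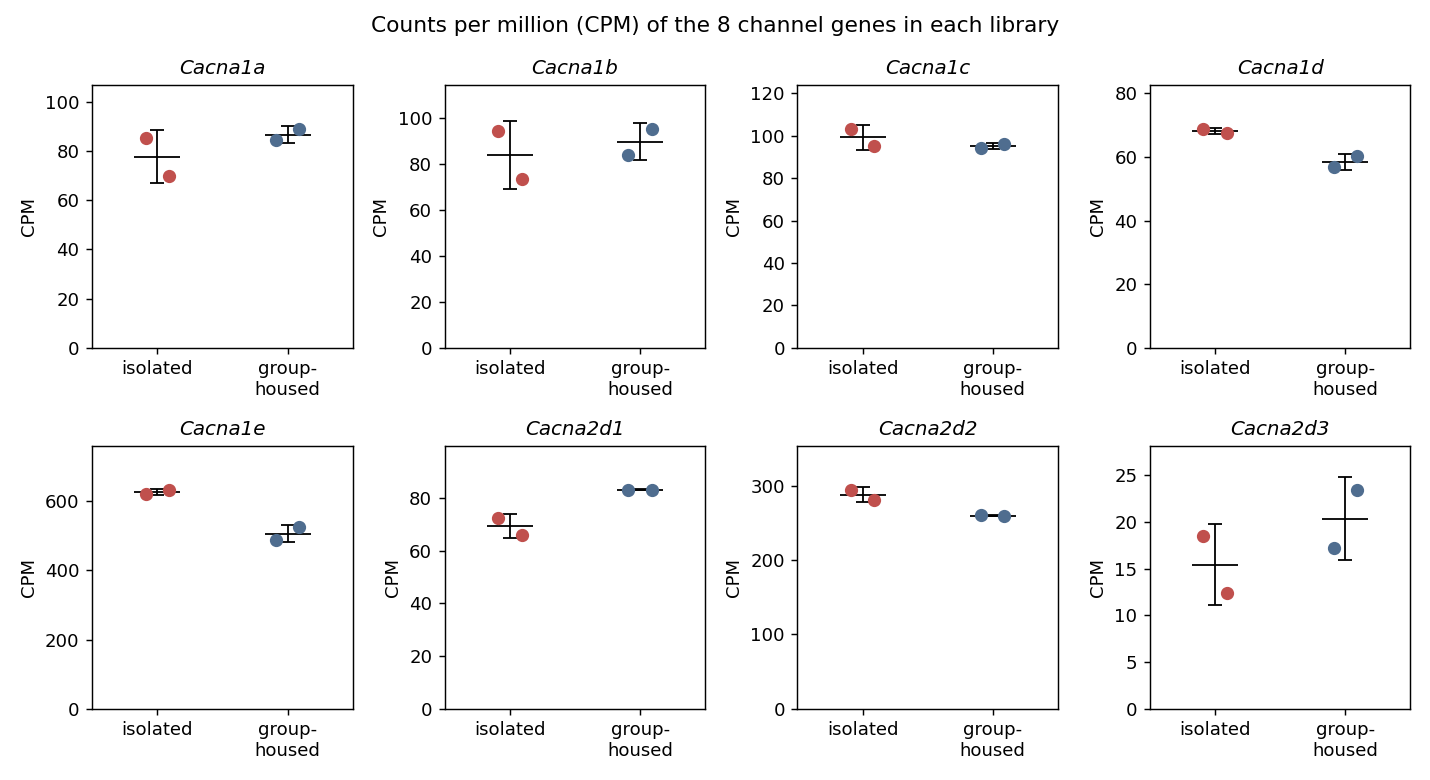
CPM (y axes, from 0, each gene on its own scale) of the 8 channel genes in isolated (left of each panel) and group-housed (right) libraries. Points are libraries, and the bars are the mean and SD of 2 libraries. The groups stand apart for Cacna1d, Cacna1e, Cacna2d1 and Cacna2d2 and overlap for the others.

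Cacna1e encodes the pore of the R-type channel, which carries calcium into dendrites and into some presynaptic terminals, in mouse including those of medial habenula neurons. It had 621 and 635 CPM in the isolated libraries, against 489 and 525 CPM in the group-housed ones. Both isolated values lay above both group-housed values, and the gap between the groups was larger than the spread within either. The means were 628 ± 9.84 CPM in isolated and 507 ± 25.5 CPM in group-housed libraries (SD, n = 2 each). The log2 fold change was 0.31 with a standard error of 0.07, or 1.24-fold with a 95% confidence interval of 1.10 to 1.39. The unadjusted p was 0.00274 and the edgeR quasi-likelihood adjusted p was 0.510. The gene is at chr1:154390731-154884501 on the minus strand of GRCm38 and shares no exon bases with another annotated gene.

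The call of Cacna1e depended on the tool. The edgeR exact test gave an adjusted p of 0.0175, with 0.468% of all tested genes called. DESeq2 gave 0.0195, with 0.359% of the genes that it adjusted called. The adjusted p was 0.429 with limma-voom and, over the 4 quasi-likelihood fits that each left out 1 library, 0.138 to 0.9999. The fold change kept its sign and a log2 value between 0.26 and 0.35 in all 10 alternatives. Since the groups did not overlap, leaving out 1 library could hardly turn that sign.

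Cacna1d encodes an L-type pore that opens at less depolarised voltages than its partner Cacna1c and supports pacemaking. Its values were 68.9 and 67.5 CPM in isolated libraries and 56.7 and 60.2 CPM in group-housed libraries. Here too both isolated libraries were the higher ones. The log2 fold change was 0.22 ± 0.07 (standard error), with a 95% confidence interval of 0.07 to 0.37. The unadjusted p was 0.00863 and the adjusted p 0.758 (edgeR). Since these are bulk libraries, a difference in the number of cells that express a gene and a difference in RNA per cell cannot be told apart. The gene (chr14:30039939-30491455, minus strand) shares 589 exon bases with the antisense gene Chdh, and whether reads were counted by strand is not stated in the labels, so reads from the shared bases cannot be assigned to either gene. Chdh itself had 305 and 339 counts in isolated and 358 and 309 counts in group-housed libraries. Cacna1d had 1808 and 1786 counts in isolated libraries and 1163 and 1547 counts in group-housed libraries.

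Cacna1c, the other L-type pore, couples depolarisation to calcium-dependent transcription. It had 103 and 95.1 CPM in the isolated libraries and 94.0 and 96.0 CPM in the group-housed libraries. Its second isolated library lay between the group-housed values, so the groups overlapped. Its log2 fold change of 0.06 had a 95% confidence interval of -0.09 to 0.21 and an adjusted p of 0.9998 (edgeR). The gene is at chr6:118587240-119196418 on the minus strand.

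Cacna1a and Cacna1b encode the P/Q-type and N-type pores that trigger fast transmitter release at most central synapses. Cacna1a had 85.3 and 70.0 CPM in isolated libraries, against 84.4 and 89.1 CPM in group-housed libraries. Cacna1b had 94.3 and 73.5 CPM in isolated libraries, against 83.8 and 95.2 CPM in group-housed libraries. For both genes the second isolated library was the lowest of the 4, while the first lay within the group-housed range. The log2 fold change of Cacna1a was -0.16 (95% confidence interval -0.37 to 0.05, edgeR adjusted p = 0.979). That of Cacna1b was -0.09 (-0.35 to 0.16, adjusted p = 0.9998). Without isolated replicate 2 the values were -0.02 for Cacna1a and 0.07 for Cacna1b, and without isolated replicate 1 they were -0.31 and -0.29. The direction for Cacna1b thus turned with 1 library. Cacna1a (chr8:84388440-84640246, plus strand) shares 435 exon bases with the antisense gene Gm16183, which had 0 counts in every library. Cacna1b (chr2:24603887-24763152, minus strand) shares none.

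The 3 alpha2delta genes differed in how the groups were ordered. Cacna2d2 was higher and Cacna2d1 lower in both isolated libraries, and Cacna2d3 overlapped. Cacna2d1 encodes a subunit that binds gabapentin and pregabalin with high affinity and that also serves as a receptor for thrombospondins in synapse formation. It had 72.5 and 66.1 CPM in isolated libraries and 83.0 and 83.3 CPM in group-housed libraries. The 2 group-housed values were nearly equal, and both isolated values lay below them. The log2 fold change was -0.26 ± 0.07 (standard error) with a 95% confidence interval of -0.42 to -0.11. The unadjusted p was 0.00406 and the adjusted p 0.570 (edgeR). The gene is at chr5:15934691-16374511 on the plus strand.

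Cacna2d2 encodes the subunit that is abundant in cerebellar Purkinje cells and whose loss causes ataxia and epilepsy in mice. Its values were 295 and 281 CPM in the isolated group, against 261 and 259 CPM in the group-housed group. Both isolated libraries were higher, by less than for Cacna1e and Cacna1d. The log2 fold change was 0.15 ± 0.07 (standard error), the unadjusted p was 0.04996, and the adjusted p was 0.974 (edgeR). The gene (chr9:107399612-107529343, plus strand) shares 82 exon bases with the antisense gene Gm17141, which had 4 and 2 counts in isolated and 1 and 2 counts in group-housed libraries.

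Cacna2d3, which in mouse and fly is needed for normal sensing of noxious heat, was the least abundant of the 8. It had 18.5 and 12.4 CPM in isolated libraries and 17.2 and 23.5 CPM in group-housed libraries. The groups overlapped, and the 2 libraries of each group lay far apart. Its log2 fold change of -0.40 had a 95% confidence interval of -0.86 to 0.05 and an adjusted p of 0.979 (edgeR). Leaving out isolated replicate 2 gave -0.14, and leaving out isolated replicate 1 gave -0.72. With 328 to 604 counts per library its counting error was at most 5.52%, whereas that of Cacna1e, with 10026 to 16802 counts, was at most 0.999%. The gene is at chr14:28904943-29721864 on the minus strand.

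**Figure D2:**
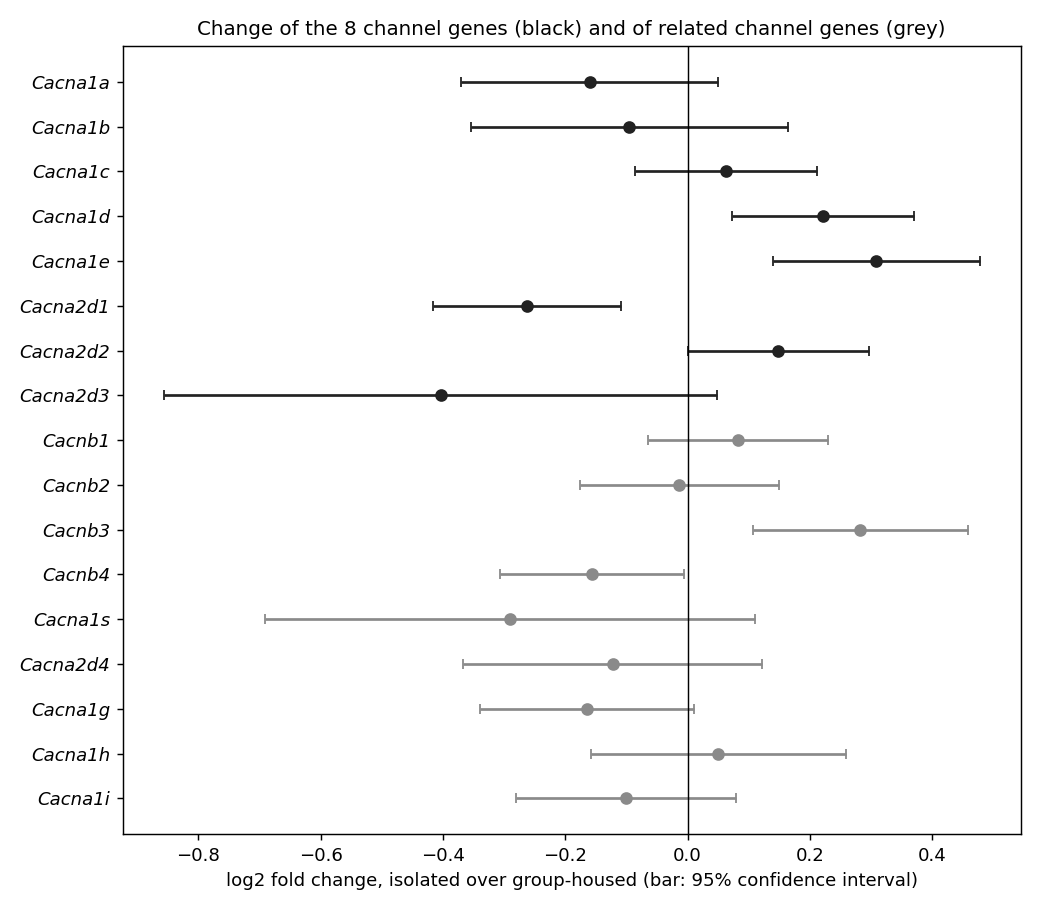
Log2 fold change, isolated over group-housed (x axis), with its 95% confidence interval (bars), of the 8 channel genes (black) and of related channel genes (grey). The intervals of Cacna1d, Cacna1e and Cacnb3 lie above 0, that of Cacna2d2 begins at 0, and those of Cacna2d1 and Cacnb4 lie below it; no gene in the plot passed the test after adjustment.

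**Figure D3:**
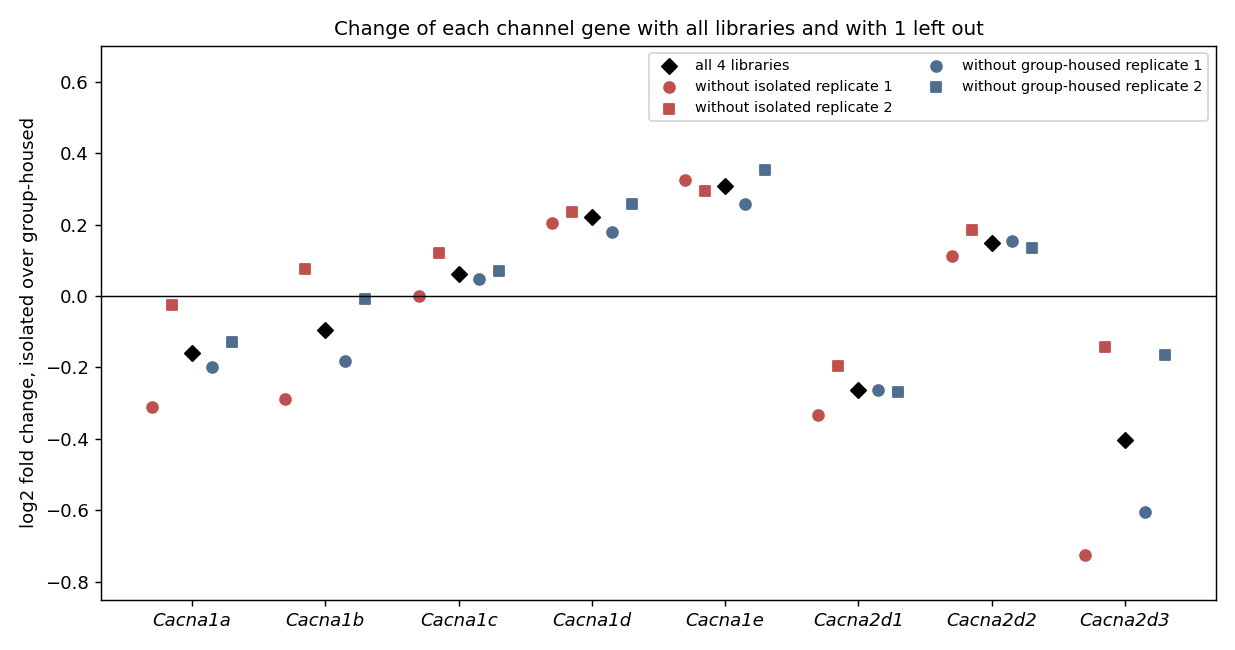
Log2 fold change, isolated over group-housed (y axis), of each channel gene with all 4 libraries (black) and with 1 library left out (colours). Cacna1e stays between 0.26 and 0.35 and Cacna2d1 between -0.33 and -0.20, while Cacna2d3 spans -0.72 to -0.14 and Cacna1b crosses 0.

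The plot of fold changes with 1 library left out shows how far the value of each gene moves. Cacna1d (0.18 to 0.26), Cacna1e, Cacna2d1 and Cacna2d2 (0.11 to 0.18) had narrow ranges. Their groups did not overlap, so leaving out 1 library could hardly turn their direction and adds no further evidence for it. Cacna1a (-0.31 to -0.02) and Cacna2d3 kept their direction with wide ranges. Cacna1c lay between 0.0005 and 0.12.

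Levels were then compared between genes as CPM per kilobase of the union of annotated exons. Cacna2d2 had the highest level, with 36.2 ± 1.25 CPM per kb in isolated and 32.7 ± 0.144 CPM per kb in group-housed libraries (SD, n = 2 each), which placed it at the 92.2nd percentile of tested genes. Cacna1e followed, with 24.9 ± 0.390 CPM per kb in isolated and 20.1 ± 1.01 CPM per kb in group-housed libraries. The R-type gene thus had the highest level of the 5 high-voltage pore genes in all 4 libraries.

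The remaining genes were lower and mostly close to each other. In CPM per kb, Cacna1b had 8.44 ± 1.48 in isolated and 9.002 ± 0.805 in group-housed libraries, and Cacna1a had 6.80 ± 0.945 in isolated and 7.60 ± 0.292 in group-housed libraries. Cacna2d1 had 5.58 ± 0.368 CPM per kb in isolated and 6.70 ± 0.0140 in group-housed libraries. On the same scale Cacna1d had 5.40 ± 0.0791 in isolated and 4.63 ± 0.196 in group-housed libraries. Cacna1c had 4.68 ± 0.274 in isolated and 4.48 ± 0.0664 in group-housed libraries. Among these 5 genes, the ranges over the 4 libraries of neighbours in the order overlapped. Cacna2d3 was last, with 1.77 ± 0.497 CPM per kb in isolated and 2.33 ± 0.510 CPM per kb in group-housed libraries, at the 34.1st percentile. The order at the top depended on the length used. Per kilobase of coding sequence Cacna1e averaged 83.2 and Cacna2d2 78.9 CPM over the 4 libraries, with overlapping ranges.

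The share of each gene within its class was taken from the same per-kilobase levels, since a share within a library does not depend on how libraries are scaled. Cacna1e made up 47.4 and 51.9% of the summed level of the 5 pore genes in isolated libraries, against 43.9 and 43.8% in group-housed libraries. The means were 49.6 ± 3.14% in isolated and 43.9 ± 0.062% in group-housed libraries (SD, n = 2 each), a difference of 5.77 percentage points. Leaving out isolated replicate 2 gave 3.55 points, and leaving out isolated replicate 1 gave 7.99. With 2 libraries against 2, the smallest p that a 2-sided exact permutation test can give is 0.333, and that was the value here. Under the coding length the mean share of Cacna1e was 65.6% in isolated and 60.6% in group-housed libraries, so the share itself depends on the length while the direction did not.

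Among the other pore genes, the P/Q-type gene Cacna1a held 14.4 and 12.6% of the pore sum in isolated libraries, against 16.7 and 16.4% in group-housed libraries. The N-type gene Cacna1b held 18.3 and 15.2% in isolated libraries, against 19.1 and 20.2% in group-housed libraries. Both shares were lower in each isolated library than in each group-housed one. The shares of a class add up to the whole, so these 2 are tied to the higher share of Cacna1e. In CPM the groups overlapped for both genes. The 2 L-type genes together held nearly the same share in both groups, 19.9 and 20.3% in isolated and 20.2 and 19.6% in group-housed libraries. Within that pair the ratio of Cacna1c to Cacna1d was 0.894 and 0.840 in isolated and 0.988 and 0.950 in group-housed libraries.

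Within the alpha2delta genes, Cacna2d2 held 82.3 and 84.0% of the summed level in isolated libraries, against 79.1 and 77.6% in group-housed libraries. Cacna2d1 held 13.0 and 12.6% in isolated libraries and 16.1 and 16.0% in group-housed libraries. The ratio of Cacna2d2 to Cacna2d1 was therefore 6.35 and 6.64 in isolated and 4.90 and 4.86 in group-housed libraries. Its mean was 6.50 ± 0.205 in isolated and 4.88 ± 0.0318 in group-housed libraries (SD, n = 2 each), a quotient of 1.33, again at the smallest exact permutation p of 0.333. The summed alpha2delta level was 0.868 and 0.867 of the summed pore level in isolated and 0.939 and 0.884 in group-housed libraries.

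**Figure D4:**
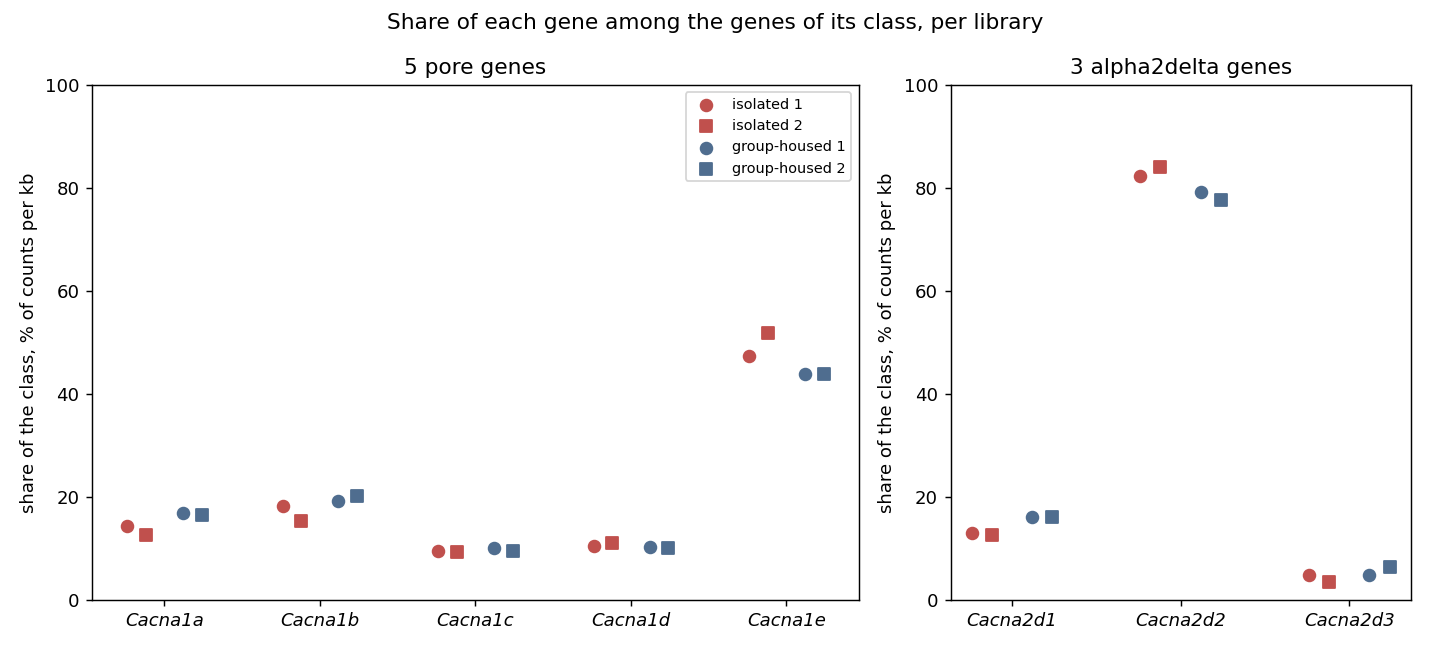
Share of each gene in the summed per-kilobase level of its class (y axes, percent, 0 to 100) in each library, for the 5 pore genes (left) and the 3 alpha2delta genes (right). Isolated libraries are red and group-housed libraries blue. Cacna1e and Cacna2d2 hold the largest shares of their classes, both higher in the isolated libraries.

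The beta subunits bind the pore from inside the cell. Of 4 beta genes none passed the test, 1 was higher and 1 lower at an unadjusted p below 0.05, and the median log2 fold change was 0.03. Cacnb3, the beta gene with the highest level per kilobase of exon, had 560 and 558 CPM in isolated libraries and 483 and 436 CPM in group-housed libraries (log2 fold change 0.28, edgeR adjusted p = 0.663). It made up 78.9 and 79.7% of the summed per-kilobase beta level in isolated libraries, against 77.3 and 74.1% in group-housed libraries. Cacnb4, whose loss causes the lethargic phenotype of ataxia and seizures in mice, had 102 and 98.9 CPM in isolated and 107 and 117 CPM in group-housed libraries (log2 fold change -0.16, adjusted p = 0.951).

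None of the 3 T-type genes passed either. Cacna1g had 218 and 196 CPM in isolated libraries and 222 and 242 CPM in group-housed libraries, with a log2 fold change of -0.16 and an adjusted p of 0.979 (edgeR). Cacna1h, with the highest of the 3 log2 fold changes, had a value of 0.05, and the list's median was -0.10. Per kilobase of exon, Cacna1g had 20.4 ± 1.48 CPM in isolated and 22.9 ± 1.37 CPM in group-housed libraries (SD, n = 2 each). On that scale Cacna1g was above Cacna1e in both group-housed libraries (21.9 and 23.8 against 19.4 and 20.8 CPM). It was below Cacna1e in both isolated libraries (21.5 and 19.4 against 24.6 and 25.2 CPM). The order depended on the length. Over the 4 libraries Cacna1g averaged 26.2 and Cacna1e 38.0 CPM per kilobase of the longest transcript. Per kilobase of coding sequence they averaged 30.7 and 83.2 CPM. Of the remaining high-voltage genes, Cacna1f, the retinal L-type pore, was below the low-count filter. The skeletal muscle pore gene Cacna1s had 5.14 and 4.49 CPM in isolated libraries and 5.41 and 6.34 CPM in group-housed libraries (log2 fold change -0.29). Cacna2d4 had 14.8 and 15.9 CPM in isolated libraries and 15.8 and 17.6 CPM in group-housed libraries (-0.12).

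Over all the related lists, none of 70 genes passed with the edgeR quasi-likelihood test, the edgeR exact test or DESeq2, and 2 (Atp2b1 and Itpr1) did without isolated replicate 1. Among 13 tested channel-binding regulators, 2 were higher and 0 lower at an unadjusted p below 0.05, and the median log2 fold change was -0.06. The calmodulin gene Calm3 had the highest level per kilobase of exon and, not scaled to length, 819 and 794 CPM in isolated and 849 and 826 CPM in group-housed libraries. The fold changes of this list ran on the log2 scale from -0.34 for Rem1, a small GTPase that inhibits the channels, to 0.46 for Stac3, an adaptor of the muscle L-type channel, and neither passed (edgeR adjusted p = 0.9998 for Rem1 and 0.979 for Stac3).

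Of 15 presynaptic partners, which tether channels at release sites, 3 were higher and 0 lower at an unadjusted p below 0.05, with a median log2 fold change of 0.01. Rimbp2, the scaffold that links RIM proteins to calcium channels, had 174 and 162 CPM in isolated libraries and 139 and 151 CPM in group-housed libraries (log2 fold change 0.21, adjusted p = 0.815). Rims2 was at the other end, with 92.3 and 83.0 CPM in isolated and 93.6 and 98.2 CPM in group-housed libraries (-0.13). The SNARE gene Snap25 had the highest level per kilobase of exon and, not scaled to length, 851 and 792 CPM in isolated libraries and 881 and 828 CPM in group-housed libraries.

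Of 8 ligands and partners of alpha2delta, 0 were higher and 0 lower at an unadjusted p below 0.05, and the median log2 fold change was -0.07. They ran from -0.12 for Nrxn3 to 0.08 for Thbs4. The receptor gene Lrp1 was the highest per kilobase of exon and had 832 and 776 CPM in isolated and 840 and 786 CPM in group-housed libraries.

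Of 11 genes for calcium extrusion and uptake, 1 was higher at an unadjusted p below 0.05, and the median was 0.02. The plasma membrane pump gene Atp2b3 had 233 and 216 CPM in isolated libraries and 192 and 188 CPM in group-housed libraries (log2 fold change 0.24, edgeR adjusted p = 0.684). The exchanger gene Slc24a3 had the lowest value, -0.19, and the store pump gene Atp2a2 the highest level per kilobase of exon. Not scaled to length, Atp2a2 had 778 and 663 CPM in isolated and 795 and 723 CPM in group-housed libraries.

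Among 11 genes for store release and store-operated entry, 1 was higher and 1 lower at an unadjusted p below 0.05, and the median was -0.01. Itpr1, the main neuronal IP3 receptor gene, had 168 and 145 CPM in isolated libraries and 184 and 191 CPM in group-housed libraries (log2 fold change -0.26, adjusted p = 0.780). Itpr3 had the highest fold change, with 7.05 and 7.37 CPM in isolated and 4.39 and 6.22 CPM in group-housed libraries (0.43, adjusted p = 0.974). Per kilobase of exon, the level of Stim1, the store calcium sensor gene, was 9.56 and 9.56 CPM in isolated and 9.05 and 9.84 CPM in group-housed libraries, and that of Itpr1 was 9.19 and 7.90 CPM in isolated and 10.03 and 10.41 CPM in group-housed libraries. On this length Stim1 was above Itpr1 in both isolated libraries and below it in both group-housed ones. The order depended on the length. Averaged over all libraries, Stim1 had 22.6 and Itpr1 17.4 CPM per kilobase of the longest transcript. Per kilobase of coding sequence Stim1 had 41.4 and Itpr1 20.8 CPM.

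Markers of neighbouring tissue differed in level between the groups as well. Of 12 medial habenula markers, 9 were higher in both isolated libraries and 10 had a log2 fold change above 0, with a median of 0.40. Chrnb3 and Slc5a7 of this list were the 2 genes of the whole matrix that passed the test (edgeR adjusted p = 0.0227 for both). The summed level of the list was 2107 and 2128 CPM in isolated libraries and 1784 and 1700 CPM in group-housed libraries. Its most abundant gene, Nwd2, had 801 and 790 CPM in isolated and 644 and 595 CPM in group-housed libraries. Hippocampus and cortex markers were mixed, with a median in the same direction. Of 8 tested, 5 had a log2 fold change above 0 and 3 below it, with a median of 0.32. In both isolated libraries 4 were higher and 2 lower. The 10 genes of the list summed to 531 and 569 CPM in isolated and 479 and 491 CPM in group-housed libraries. The most abundant of them, Slc17a7, had 215 and 252 CPM in isolated and 183 and 196 CPM in group-housed libraries. The summed levels of both lists were ordered between the groups as Cacna1d, Cacna1e, Cacna2d2 and Cacnb3 were, and the part of these tissues in the channel values was not tested.

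Thalamus markers ran the other way. Of 12, 11 had a log2 fold change below 0 (median -0.34) and 6 were lower in both isolated libraries. Their summed level was 1832 and 1590 CPM in isolated and 1811 and 1912 CPM in group-housed libraries, the most abundant being Zic1 at 554 and 559 CPM in isolated and 526 and 491 CPM in group-housed libraries. The second isolated library had the lowest thalamic level, with a median of -0.34 on the log2 scale relative to the mean of the 4 libraries. That library was also the lowest for the medians of the lateral habenula (-0.17), pan-neuronal (-0.08) and microglia (-0.10) lists. Of the channel genes, Cacna1a (-0.22), Cacna1b (-0.23), Cacna2d1 (-0.20) and Cacna2d3 (-0.49) were lowest in it. A low level there was thus not particular to the thalamus list. Whether the thalamic share of the tissue plays a part in these values was not tested.

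The median log2 fold change of the 12 pan-neuronal markers was -0.05, and they summed to 6071 and 5553 CPM in isolated and 6160 and 5877 CPM in group-housed libraries. Of the 10 genes listed as lateral habenula markers, 3 (Gpr151, Pou4f1 and Sstr2) were higher and 1 (Gap43) was lower in both isolated libraries. The median of the list was -0.02, and its genes summed to 1839 and 1596 CPM in isolated and 1754 and 1627 CPM in group-housed libraries. Whether these genes are confined to the lateral habenula, and not shared with the medial habenula, was not tested. Oligodendrocyte markers summed to 10733 and 12617 CPM in isolated and 14147 and 13109 CPM in group-housed libraries, with 8 of 11 lower in both isolated libraries. Ependyma markers come from the lining of the ventricle beside the habenula. They summed to 66.5 and 137 CPM in isolated and 64.4 and 60.7 CPM in group-housed libraries. In this sum the second isolated library stood apart from the other 3. Gene by gene, all 7 tested ependyma markers had a log2 fold change above 0, with a median of 0.79. Of these, 6 were higher in both isolated libraries. The part of these lists in the channel values was not tested.

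**Figure D5:**
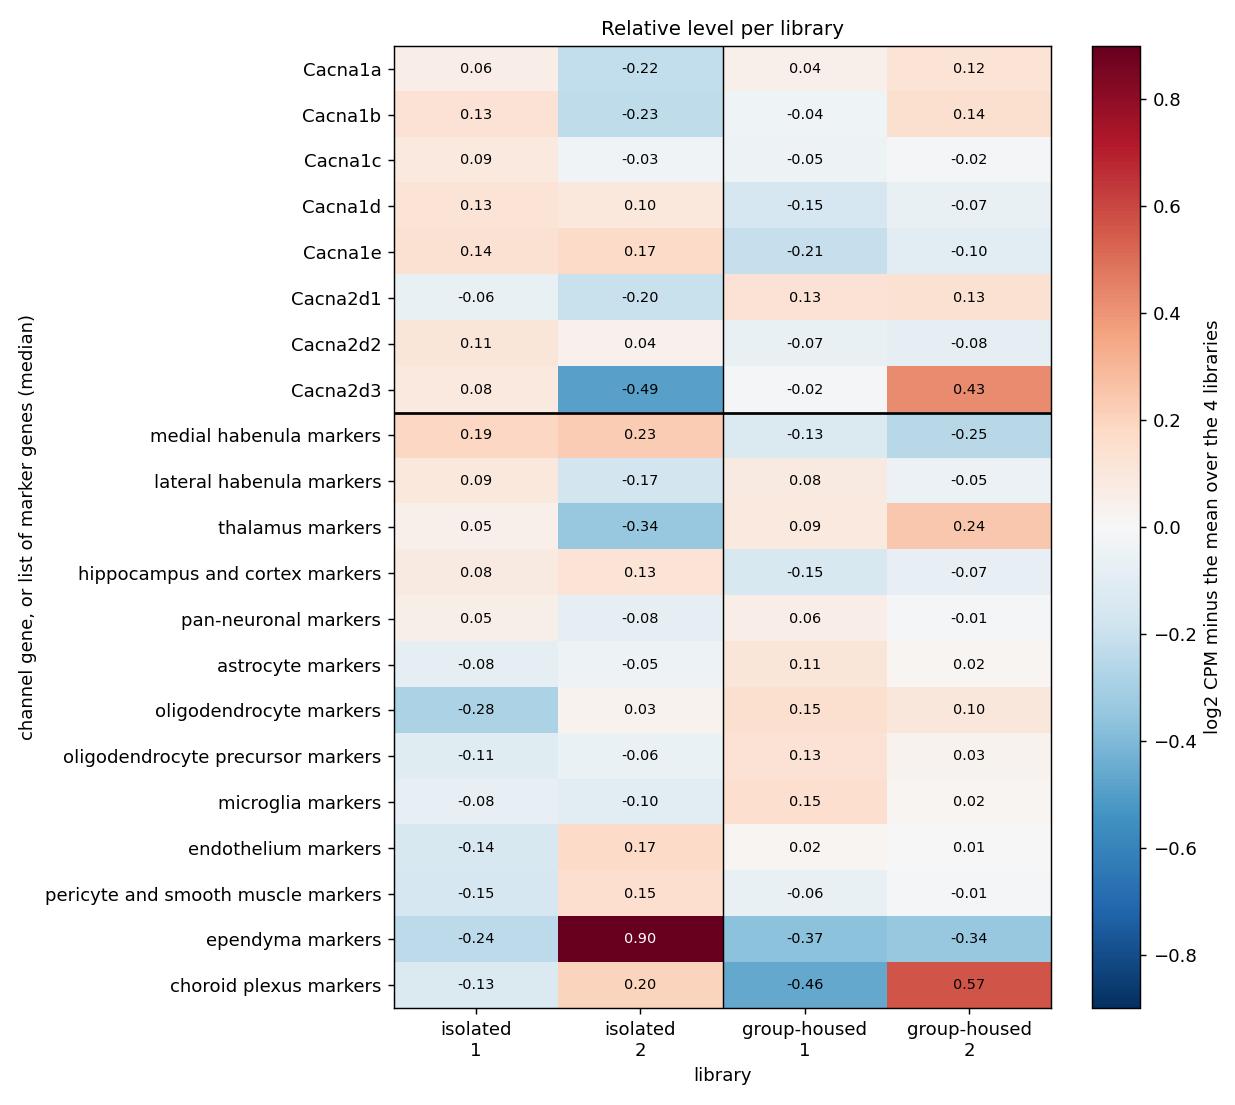
Relative level in each library (log2 CPM minus the mean over the 4 libraries) of the 8 channel genes (top) and median relative level of 13 lists of cell type or tissue markers (bottom); red is higher and blue lower. The medial habenula row is red in both isolated libraries, and the thalamus row is lowest, at -0.34, in the second isolated library. The lateral habenula, pan-neuronal and microglia rows are lowest in that library too, as are Cacna1a, Cacna1b, Cacna2d1 and Cacna2d3.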

How the data were processed

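Trizol was used to extract RNA and a stranded mRNA kit to make the libraries, per the labels' protocols. The tools in the submitters' processing notes are edgeR, HTSeq, TopHat2 2.1.1 and CASAVA, with the build GRCm38. Not given in the sources used here are the role of each tool, the annotation release, the read length and whether counting used strand. The authors deposited raw counts per Ensembl gene, on which all tests were run. A signal per gene that the authors deposited beside them was each count multiplied by a constant of its library, and only those constants (0.0387 to 0.0499) were read from it.

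Symbols, coordinates, exon lengths and coding sequences came from GENCODE release M21; 53274 of 53465 identifiers had a symbol. The low-count filter of edgeR (filterByExpr) kept 17528 genes. The groups were compared in R 4.3.3 by edgeR 4.0.16 (glmQLFit and glmQLFTest, 2-sided, no covariate, Benjamini-Hochberg adjustment, threshold 0.05). The common biological coefficient of variation was 7.20%, with 2 residual and 6.55 prior degrees of freedom. Intervals are at 95%. Relative levels per library are log2 of CPM plus 0.1. DESeq2 1.42.0, limma 3.58.1 (voom), the edgeR exact test, other scaling, no filter, a replicate block and leaving out each library were alternatives. The scripts were tested on simulated data. The counting error is the Poisson standard deviation of a count as a percentage, and it covers counting error only.

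The 8 genes, the related gene lists, the marker lists and the tests were chosen with earlier results of these data known. By rule, all 8 genes were named, and of each related list the gene with the highest level per kilobase and those with the highest and lowest fold change. Of a marker list the most abundant gene was named; Chrnb3 and Slc5a7 were named as the 2 that passed. Cacna1f, Atp2b1, the lateral habenula markers other than Gpr151 and the genes named for an overlap were named after their values were seen.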

Additional observations from a re-analysis of the deposited data

How the results depend on the processing

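With the edgeR quasi-likelihood test none of the 8 channel genes was called; the edgeR exact test and DESeq2 each called 1, Cacna1e. The number of all genes called was 2, but 15 without the low-count filter, 82 with the edgeR exact test, 52 with DESeq2 and 1 to 221 when a library was left out, 221 without isolated replicate 1. None of the 70 related genes was called, and 0 to 2 were when a library was left out: Atp2b1 and Itpr1, without isolated replicate 1. Among log2 fold changes of the 8 genes, 1 of 80 alternative values turned sign, that of Cacna1b, which was -0.29 to 0.07 when a library was left out and 0.0743 without isolated replicate 2. The cause was not tested. The library numbers share only a number, and the correlation of same-numbered deviations was 0.141 over 2 pairs; with the replicate block 64 genes were called overall and 0 of the 8 (Cacna1e adjusted p = 0.101). The differences in class share kept their sign in all 48 alternatives. Those that left out a library could not turn it, since on the exon union the groups did not overlap for any of the 8 shares. Only the other lengths could. Shares within a class are tied, so the 8 are not separate results, and no share over all genes stands beside them. Under the coding length the groups overlapped for Cacna2d3 (5.03 and 3.62% in isolated, 4.99 and 6.71% in group-housed libraries). Leaving out a library could likewise hardly turn the log2 fold changes of Cacna1d, Cacna1e, Cacna2d1 and Cacna2d2, whose groups did not overlap in CPM. Under the coding length 3 of these differences moved from their value on the exon union by more than the spread between replicates. Cacna1c went from -0.47 to -1.04, Cacna1d from 0.65 to 0.14 and Cacna2d1 from -3.25 to -4.39 percentage points. Leaving out a library of a pair cannot move a mean past that spread; so left, the difference was -4.40 to -1.36 points for Cacna1b, -0.73 to -0.22 for Cacna1c, 0.40 to 0.91 for Cacna1d, 3.55 to 7.99 for Cacna1e and -2.38 to -0.72 for Cacna2d3.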
